A study of Mus musculus with 4 samples.

Results

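The genes of sterol and fatty acid synthesis were followed across livers with and without ribosomal protein S6 (Rps6) and with and without a c-Myc transgene. The 42 genes were taken from a fixed list, with 22 in a cholesterol arm (the enzymes from acetyl-CoA to cholesterol, Srebf2, the Insig proteins and the sterol carrier Stard4) and 20 in a fatty acid arm (the enzymes that make, elongate, desaturate and store fatty acids, and their regulators). Of these, 41 had a probe set annotated to that gene alone, out of 18194 genes measured in this way. The exception was Acat2, of the cholesterol arm, which was not analysed here. Where a gene had several such probe sets, the one brightest on average was used, and the mean log2 value reached 8 in 40 of the 41.

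Each of the 4 arrays was hybridised with liver RNA combined from 3 non-fasted mice at 5 weeks of age, which the labels call male. WT mice (Wild-type) had no deletion, a name the study also uses for mice with floxed Rps6 and no Cre, and ΔS6 mice (DS6 in the labels) had floxed Rps6 alleles deleted by Cre under the albumin promoter, which acts in hepatoblasts and so reaches both hepatocytes and biliary cells. Alb-c-Myc mice (Myc) carried c-Myc under the albumin promoter without the deletion, and ΔS6:c-Myc mice (DS6 Myc) carried the transgene together with the deletion. The strain background was mixed, and the deletion is described by the study as mosaic, so a ΔS6 liver still holds cells with Rps6. As there is 1 array per genotype, differences could not be checked against replicates and p-values were not computed. The only error that the values allow is the SD of the log2 ratio between bright probe sets of 1 gene, which was 0.27 for ΔS6 over WT, 0.14 for Alb-c-Myc over WT, 0.29 for ΔS6:c-Myc over WT, 0.24 for ΔS6:c-Myc relative to Alb-c-Myc and 0.20 for ΔS6:c-Myc over ΔS6. It measures the disagreement of probes and says nothing of the spread between mice. Levels below are log2 expression values, which can be compared between arrays for 1 gene but not between genes.

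Cholesterol and fatty acids are both built from cytosolic acetyl-CoA, and the liver is a main site of both. Sterol regulatory element binding proteins are made as membrane precursors that the Insig proteins hold in the endoplasmic reticulum when sterols are plentiful. The product of Srebf2 acts mainly on genes of cholesterol synthesis and that of Srebf1 mainly on genes of fatty acid synthesis, while Mlxipl encodes ChREBP, which responds to carbohydrate and acts on lipogenic and glycolytic genes. Both kinds of synthesis rise after feeding, and lipogenic genes of the liver also follow the time of day.

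The promoters of the members were searched for 3 motifs, as a description of their sequence. They came from RefSeq's promoter table of GRCm38.p6, which matched 18 genes of the cholesterol arm (Acat2 among them) and 15 of the fatty acid arm, and the 250 bases before each start were searched on both strands. The letters CCAAT, the site of the factor NF-Y, stood in 17 of the 18 cholesterol arm genes (94.4%, the exception being Acat2) and in 10 of the 15 fatty acid arm genes (66.7%), against 37.5% of all 27025 genes of the table and 39.4% of the 14453 that were also measured here. The E-box CACGTG stood in 4 (22.2%) and 2 genes (13.3%), against 6.86% of all. A sterol element spelled TCACNCCAC was found in 1 gene of each arm, Hmgcs1 and Mlxipl, against 1.22% of all. These matches describe letters only, and no binding was measured. The last 150 bases before the start are printed for the 3 genes of each arm with the largest ΔS6 over WT ratio in the direction of that arm, among those with 1 start in the table, and for Hmgcs1 as the cholesterol arm gene with the sterol element. They run 5′ to 3′ on the strand of the gene, and capitals mark CCAAT, its reverse complement ATTGG, or, in Hmgcs1, also the sterol element. In the printed stretches no match overlaps one of another motif.
Lss of the cholesterol arm has 1 CCAAT match, in the reverse direction.
Lss (chr10:76531455-76531604, plus strand): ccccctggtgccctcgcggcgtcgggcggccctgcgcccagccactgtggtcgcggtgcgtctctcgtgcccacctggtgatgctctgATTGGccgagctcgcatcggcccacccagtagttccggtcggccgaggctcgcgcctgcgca
Cyp51 (chr5:4104698-4104847, minus strand): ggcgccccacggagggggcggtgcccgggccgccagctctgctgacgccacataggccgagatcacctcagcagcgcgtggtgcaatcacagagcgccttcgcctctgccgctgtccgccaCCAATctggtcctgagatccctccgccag
Mvd (chr8:122443423-122443572, minus strand): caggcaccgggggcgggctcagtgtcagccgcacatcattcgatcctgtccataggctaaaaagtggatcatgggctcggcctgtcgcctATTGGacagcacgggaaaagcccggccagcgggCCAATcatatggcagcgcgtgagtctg
The fatty acid arm is shown by Thrsp, Acacb and Fasn, the last with overlapping matches on opposite strands.
Thrsp (chr7:97417551-97417700, minus strand): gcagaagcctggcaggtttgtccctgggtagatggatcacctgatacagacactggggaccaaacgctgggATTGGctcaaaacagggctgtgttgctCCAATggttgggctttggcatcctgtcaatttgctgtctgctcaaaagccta
Acacb (chr5:114165368-114165517, plus strand): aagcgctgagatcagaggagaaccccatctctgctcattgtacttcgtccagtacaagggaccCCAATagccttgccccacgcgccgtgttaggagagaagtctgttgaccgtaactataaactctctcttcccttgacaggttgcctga
Fasn (chr11:120824548-120824697, minus strand): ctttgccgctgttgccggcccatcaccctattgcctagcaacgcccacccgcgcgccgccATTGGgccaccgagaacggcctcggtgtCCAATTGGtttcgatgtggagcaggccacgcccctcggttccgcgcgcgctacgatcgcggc
The sterol element of Hmgcs1 starts at base -137 and its CCAAT match at base -45, counted back from the transcription start.
Hmgcs1 (chr13:119690201-119690350, plus strand): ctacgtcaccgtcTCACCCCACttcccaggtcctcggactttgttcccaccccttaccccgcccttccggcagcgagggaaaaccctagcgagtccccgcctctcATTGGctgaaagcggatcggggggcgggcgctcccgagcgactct

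**Figure D1:**
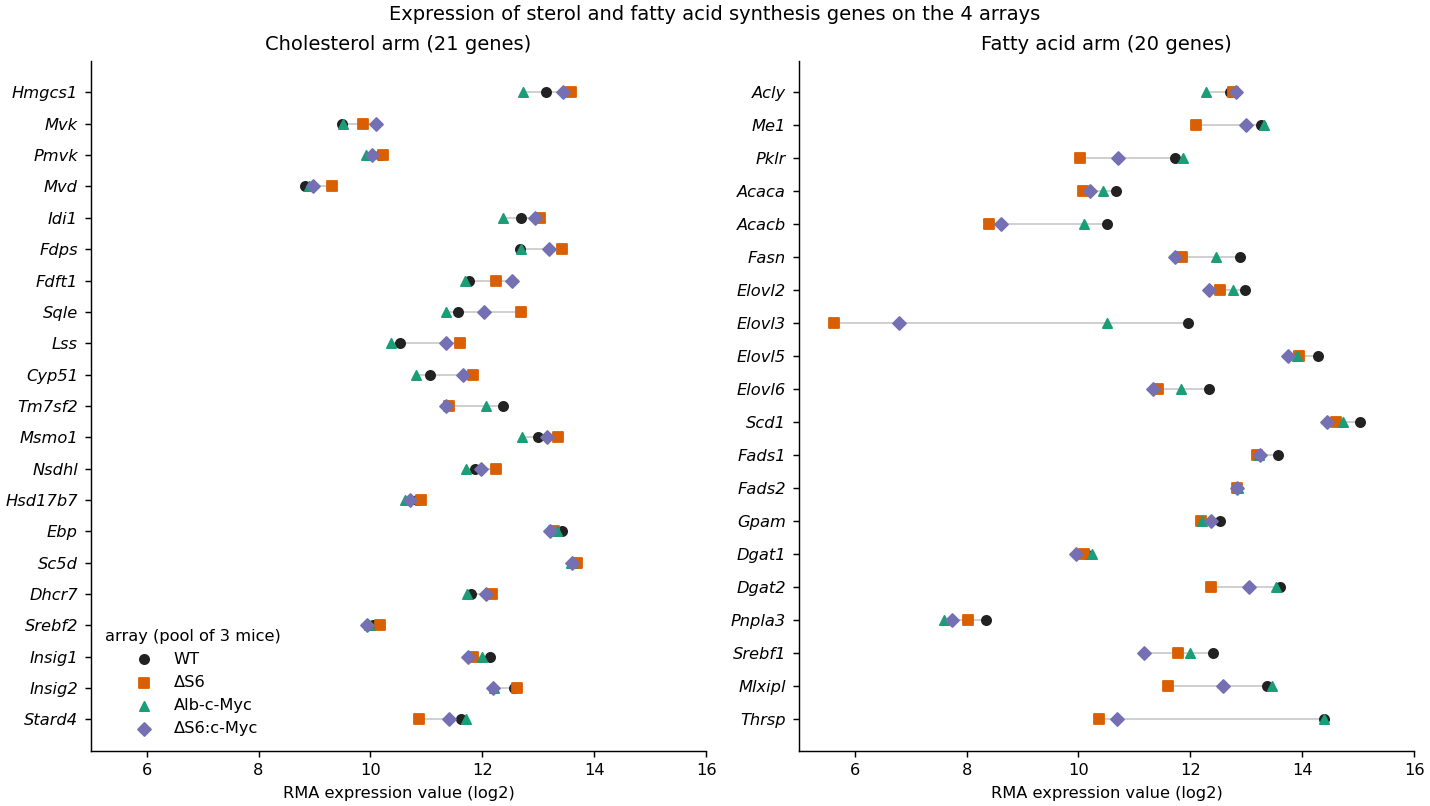
Log2 expression values (horizontal axis) of the 21 cholesterol arm genes and the 20 fatty acid arm genes, 1 symbol per array, each array holding RNA of 3 mice. The ΔS6 symbol lies farthest right for 15 of 21 cholesterol arm genes, and the WT symbol for 14 of 20 fatty acid arm genes.

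The arms separated in ΔS6 liver. Of the 21 cholesterol arm genes 17 had a higher level in ΔS6 than in WT (median log2 ratio 0.35), and of the 20 fatty acid arm genes 19 were lower, with a median of -0.61 (-0.29 when Alb-c-Myc liver served as the reference). The medians lay 0.96 apart, where the median over all genes was -0.05. Above the probe set SD of 0.27 were 12 cholesterol arm genes (57.1%), against 25.2% of all genes and 32.0% of the 9042 genes whose mean log2 value reached 8. Below minus that SD were 17 fatty acid arm genes (85.0%), against 23.8% of all genes and 24.7% of the bright ones. Past 2-fold the arms differed in kind. Of the fatty acid arm 8 of 20 genes were at least 2-fold lower, against 2.54% of all genes and 4.36% of the bright ones, and 0 were higher. These 8 were Elovl3, Thrsp, Acacb, Mlxipl, Pklr, Dgat2, Me1 and Fasn. Of the cholesterol arm 2 of 21 were at least 2-fold higher, against 7.24% of all genes, so this count was near the share of all genes, and what is described for this arm is a shared sign (81.0% of its genes above 0, against 43.9% of all genes and 53.6% of the bright ones) and not a size. These 2 were Sqle and Lss. Across all 4 arrays, the highest value lay in ΔS6 for 15 of 21 cholesterol arm genes (71.4%, against 27.5% of all genes and 31.2% of the bright ones). It lay in WT for 14 of 20 fatty acid arm genes (70.0%, against 26.8% of all genes and 22.6% of the bright ones).

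**Figure D2:**
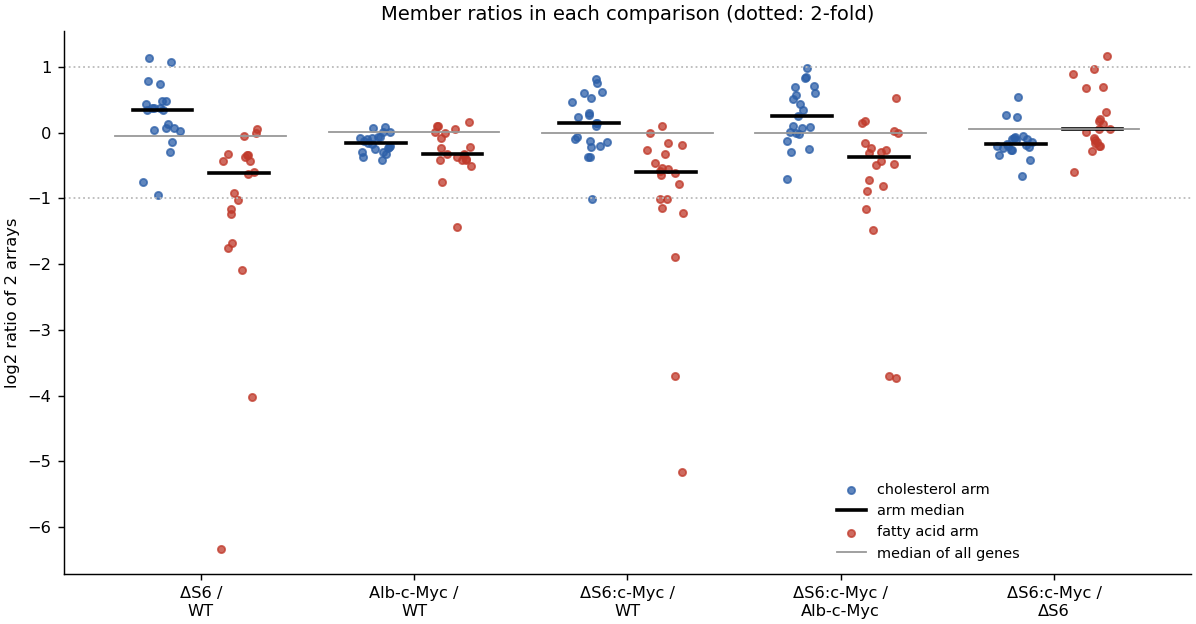
Log2 ratios of the cholesterol arm (blue) and fatty acid arm (red) in the 5 comparisons, 1 point per gene, with arm medians in black and the median of all 18194 genes in grey. The arms lie apart in the 3 comparisons that set an Rps6-deleted liver against one with Rps6, and close together for Alb-c-Myc over WT and ΔS6:c-Myc over ΔS6.

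In the cholesterol arm the largest ratios lay in the middle of the pathway. The 5 enzymes that carry isoprenoids to lanosterol were higher than the probe set SD in ΔS6, with a median log2 ratio of 0.74. With all probe sets of a gene averaged, Fdps (0.25) and Fdft1 (0.06) fell below that SD, as their dim probe sets entered the mean. Squalene epoxidase (Sqle), which adds the oxygen that later becomes the sterol hydroxyl, had levels of 11.57 for WT, 12.69 for ΔS6, 11.34 for Alb-c-Myc and 12.04 for ΔS6:c-Myc, which made it 2.18-fold higher in ΔS6 than in WT. Lanosterol synthase (Lss), which closes the sterol rings, had 10.54, 11.61, 10.36 and 11.35 in the same order and was 2.10-fold higher. Both Rps6-deleted arrays lay above both arrays with Rps6 for each gene. Farnesyl diphosphate synthase (Fdps) had 12.67, 13.42, 12.69 and 13.20, and squalene synthase (Fdft1), the first enzyme committed to sterols, 11.77, 12.25, 11.69 and 12.52. Fdft1 was highest in ΔS6:c-Myc and not in ΔS6. The isomerase Idi1 had 12.70, 13.03, 12.37 and 12.94, the smallest ΔS6 over WT ratio of the group at 0.34.

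Upstream, the 4 measured enzymes of the mevalonate steps all had ratios above 0, with a median of 0.41. Hmgcs1, the cytosolic synthase that makes HMG-CoA, had 13.14 for WT, 13.58 for ΔS6, 12.72 for Alb-c-Myc and 13.44 for ΔS6:c-Myc. All 4 of its bright probe sets gave a ΔS6 over WT ratio between 0.40 and 0.54. Mevalonate kinase (Mvk) was 0.38 above WT in ΔS6, the decarboxylase Mvd 0.48 and phosphomevalonate kinase (Pmvk) 0.06. Pmvk thus stayed within the probe set SD while the other 3 exceeded it.

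Downstream of lanosterol the enzymes were less alike. Lanosterol demethylase (Cyp51) had 11.06, 11.83, 10.81 and 11.66, higher on both Rps6-deleted arrays, and the reductase of the last step (Dhcr7), Nsdhl and Msmo1 had ΔS6 over WT ratios from 0.35 to 0.37. Hsd17b7 (0.06), Sc5d (0.02) and Ebp (-0.15) were within the probe set SD. Tm7sf2, a sterol reductase that acts after Cyp51, went the other way, with 12.36 for WT, 11.41 for ΔS6, 12.07 for Alb-c-Myc and 11.36 for ΔS6:c-Myc, a ratio of -0.95. Its levels on the Rps6-deleted arrays were below both others, the reverse of its neighbours in the pathway. Lbr, a nuclear envelope protein with the same reductase activity and no member of the arm, named here after its values were seen, had 9.79, 10.67, 9.66 and 9.66, so it was higher in ΔS6 alone. For Sc5d the 3 bright probe sets disagreed, with ΔS6 over WT ratios from -1.15 to 0.02, so its direction depends on the probe set.

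**Figure D3:**
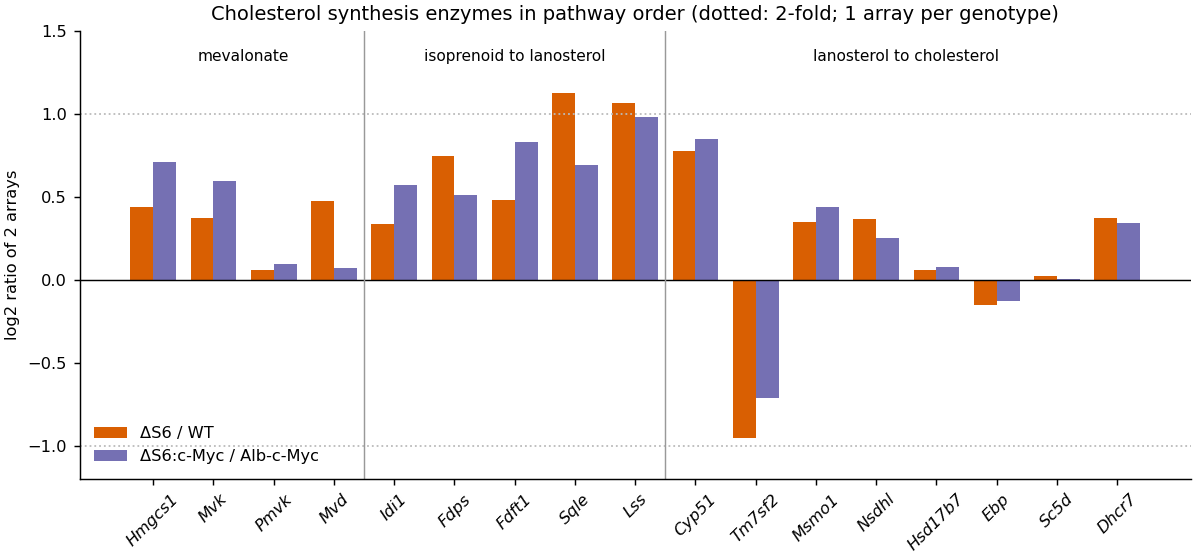
Log2 ratios (vertical axis) of the 17 measured cholesterol synthesis enzymes in pathway order, for ΔS6 over WT (orange) and ΔS6:c-Myc relative to Alb-c-Myc (purple). The bars of Sqle and Lss reach above 1 for ΔS6 over WT, Cyp51 follows at 0.78 and Tm7sf2 lies at -0.95 and -0.71.

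The regulators of the arm did not follow the enzymes. Srebf2 itself had 10.04 for WT, 10.17 for ΔS6, 9.97 for Alb-c-Myc and 9.94 for ΔS6:c-Myc, all within the probe set SD of WT. A dimmer probe set of Srebf2 gave 0.81 for ΔS6 over WT, so the 2 bright probe sets share a sign but not a size. Insig1, an endoplasmic reticulum anchor of the SREBP precursors that is itself sterol-regulated, had 12.13, 11.83, 12.00 and 11.75. Insig1 was thus lower on both Rps6-deleted arrays, with ratios of -0.30 against WT and -0.25 against Alb-c-Myc. Insig2 had 12.57, 12.62, 12.20 and 12.19, a split by the transgene and not by the deletion. Stard4, which moves cholesterol between membranes, had 11.62, 10.87, 11.71 and 11.41, and its 3 probe sets gave ΔS6 over WT ratios from -0.87 to -0.61. Stard4 and Tm7sf2 were the cholesterol arm genes with the largest negative ratios in ΔS6.

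In the fatty acid arm the largest ratios belonged to regulators and to single enzymes rather than to the arm as a whole. Thrsp (Spot 14), a small protein that promotes lipogenesis and is a classic target of thyroid hormone and carbohydrate, had levels of 14.39 for WT, 10.37 for ΔS6, 14.38 for Alb-c-Myc and 10.68 for ΔS6:c-Myc. The arrays fell into 2 pairs by Rps6, and Thrsp was 16.2-fold lower in ΔS6 than in WT. Of the 3 bright probe sets of Thrsp, 2 gave ratios of -4.45 and -4.02 and a dimmer one -0.47. Mlxipl (ChREBP) had 13.37, 11.61, 13.46 and 12.58 and was 3.39-fold lower in ΔS6. Its known target Pklr, the liver pyruvate kinase that ends glycolysis, had 11.72, 10.03, 11.87 and 10.70 and was 3.22-fold lower. For both genes the transgene array with the deletion lay between ΔS6 and the arrays with Rps6. Srebf1 had 12.41, 11.78, 12.00 and 11.18, with the lowest level in ΔS6:c-Myc.

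The core enzymes of fatty acid synthesis were lower by unlike amounts. Acacb, the acetyl-CoA carboxylase isoform whose malonyl-CoA restrains fatty acid oxidation at mitochondria, had 10.50 for WT, 8.41 for ΔS6, 10.10 for Alb-c-Myc and 8.61 for ΔS6:c-Myc and was 4.27-fold lower in ΔS6. Acaca, the isoform that supplies malonyl-CoA for synthesis, had 10.67, 10.08, 10.44 and 10.21, a ratio of -0.59. Fatty acid synthase (Fasn) had 12.88, 11.85, 12.46 and 11.73 and was 2.04-fold lower. Acly, which makes the cytosolic acetyl-CoA that both arms consume, had 12.70, 12.76, 12.28 and 12.81. It was the only fatty acid arm gene with a ΔS6 over WT ratio above 0, at 0.06, and its lowest level was in Alb-c-Myc, as in most of the cholesterol arm. Malic enzyme (Me1), a source of NADPH, had 13.26, 12.10, 13.31 and 12.99, so it was lowest in ΔS6. Relative to Alb-c-Myc its ratio in ΔS6:c-Myc was -0.31, and -0.09 by its other bright probe set.

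Chain-modifying enzymes were also lower in ΔS6. Elovl6, which elongates palmitate, had 12.34, 11.42, 11.83 and 11.34, a ratio of -0.92, while Elovl2 and Elovl5, which elongate polyunsaturated chains, had -0.44 and -0.34. Elovl3, an elongase of very long chains, had 11.95 for WT, 5.62 for ΔS6, 10.51 for Alb-c-Myc and 6.79 for ΔS6:c-Myc. At 5.62 the ΔS6 value was not shown to be above background, so the size of its ratio (-6.33) is uncertain. Stearoyl-CoA desaturase (Scd1) had a ratio of -0.43 and the desaturase Fads1 one of -0.38. Fads2 had the same level on all 4 arrays within 0.02 by its brightest probe set, but its other 2 bright probe sets gave -0.34 and -0.79.

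Among enzymes of triglyceride synthesis the acyltransferases parted. Dgat2, which completes triglycerides from newly made fatty acids, had 13.60 for WT, 12.36 for ΔS6, 13.52 for Alb-c-Myc and 13.05 for ΔS6:c-Myc and was 2.36-fold lower in ΔS6. Dgat1, which catalyses the same reaction, had 10.14, 10.09, 10.25 and 9.95, all within the probe set SD of WT. Gpam, the mitochondrial enzyme of the first acylation, had a ratio of -0.33 and the lipid droplet protein Pnpla3 one of -0.34. Pnpla3 was the 1 member with a mean below 8.

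**Figure D4:**
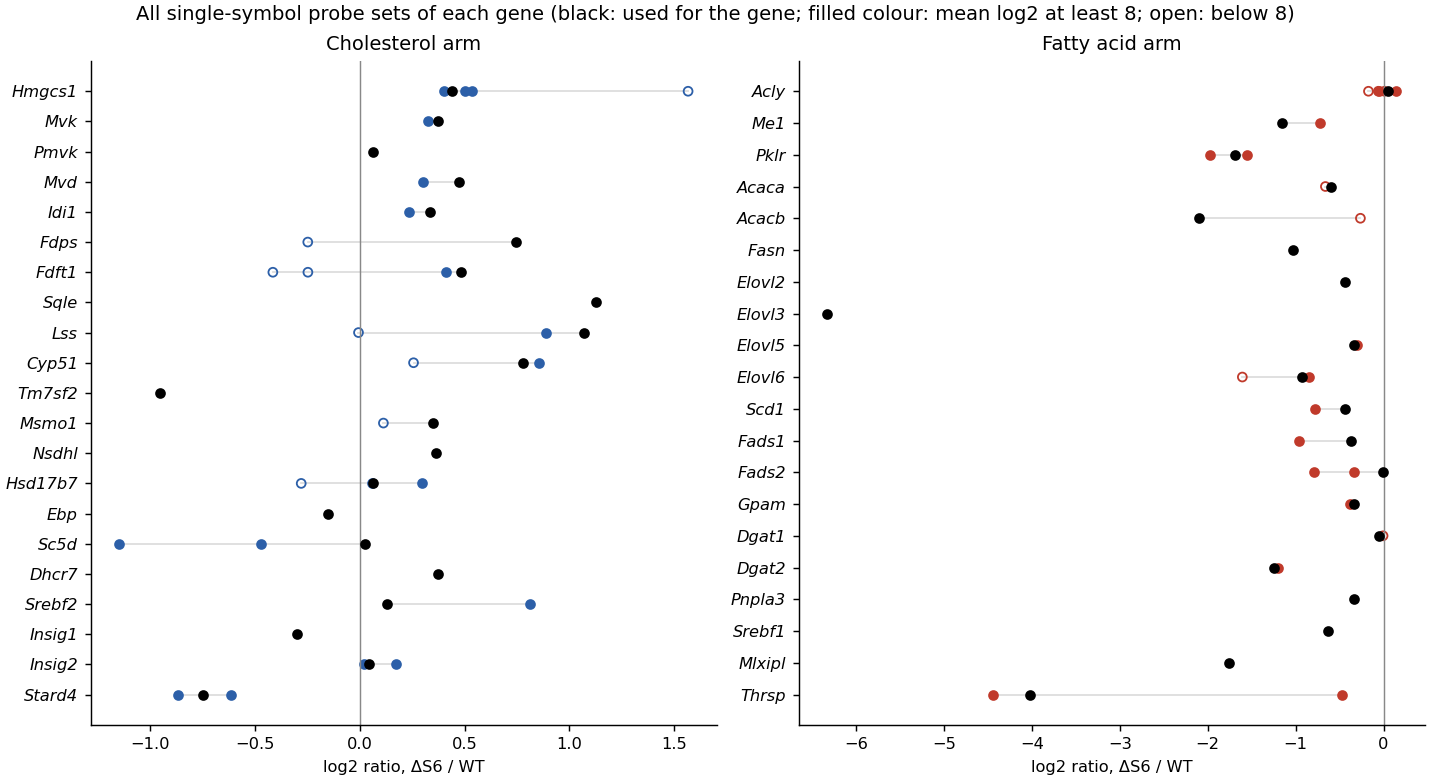
Log2 ratio of ΔS6 over WT (horizontal axis) for every probe set annotated to 1 member alone, with the probe set used for the gene in black, others whose mean log2 value reached 8 filled and dimmer ones open; the 2 panels have different scales. Bright probe sets lie on 1 side of 0 for 21 of the 23 genes that have several, the exceptions being Sc5d and Acly.

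Values of other cells and of sex moved with these differences. In ΔS6 over WT all 9 measured bile duct and progenitor markers were at least 2-fold higher, their summed linear signal going from 1040 in WT to 24883 in ΔS6 (Alb-c-Myc had 1024 and ΔS6:c-Myc 2281). Of 13 macrophage markers 12 were higher, with sums of 16071, 71484, 14285 and 24888 for WT, ΔS6, Alb-c-Myc and then ΔS6:c-Myc, and so were 7 of 10 neutrophil, 7 of 9 stellate cell and matrix and 8 of 8 dividing cell markers, the last with a median of 2.47. Of 12 hepatocyte markers 0 were past 2-fold, and their sums were 349625, 324525, 337875 and 311260. Their levels in WT had a median of 14.98 and reached 15.42. Whether probe sets this bright show the full size of a change was not tested. Of 7 adipocyte markers 0 were past 2-fold. Values on this scale have no true 0, so no marker can be called absent. In bulk liver RNA, fewer cells of a type and less RNA per cell cannot be told apart. The part of these cells in the ratios of either arm was not tested.

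The WT array stood apart from the other arrays, which touches every ratio over WT and Elovl3 most directly. Xist, which is transcribed from inactive X chromosomes, had 11.84 in WT and at most 6.33 on the other arrays, although the Y-linked Eif2s3y (8.67), Kdm5d (7.70) and Uty (7.73) were measured there too, each at its lowest of the 4 arrays, so whether the WT pool held RNA of female mice is not settled by these values, and all 11 pancreatic enzyme markers were at least 2-fold lower in ΔS6 than there. Of 12 male-biased liver genes, which include Elovl3, 10 were at least 2-fold lower in ΔS6 than in WT, and 9 were so in ΔS6:c-Myc relative to Alb-c-Myc, a comparison without the WT array. Of 10 female-biased liver genes 4 were at least 2-fold lower and 2 higher in ΔS6 over WT. The 4 lower were Sult3a1, Cyp2b13, Acot3 and Cyp2b9. The 2 higher were Prom1, counted above among the bile duct and progenitor markers too, and Cyp3a16, which was dim (4.16 in WT and 5.65 in ΔS6). In ΔS6:c-Myc relative to Alb-c-Myc 6 of these 10 genes, Prom1 among them, were at least 2-fold higher, against 1.99% of all genes. In that comparison 0 were at least 2-fold lower, and the median was 1.24. Without Elovl3, 7 fatty acid arm genes were at least 2-fold lower in ΔS6 than in WT. When ΔS6 was set against Alb-c-Myc liver instead of WT, a choice made after these values were seen, 3 cholesterol arm genes were past 2-fold upward, against 7.0% of all genes, and 7 fatty acid arm genes past it downward, against 2.23%, and the medians became 0.41 and -0.29, with -0.06 over all genes.

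The deletion gave much the same order of genes in transgenic liver, where neither array was shared with the first comparison. As a check of the labels, Myc had 8.33, 8.89, 11.68 and 11.37 in the same order of arrays, and the 9 probe sets that Rps6 shares with another symbol had a median ratio of -0.29 in ΔS6 over WT and of -1.76 in ΔS6:c-Myc relative to Alb-c-Myc. The 2 probe sets named for Rps6 and no other gene disagreed in direction in both comparisons, so the labels of the deletion rest on the shared ones. In ΔS6:c-Myc relative to Alb-c-Myc 15 of 21 cholesterol arm genes had ratios above 0 (median 0.26) and 16 of 20 fatty acid arm genes below 0 (median -0.37), where the median of all genes was -0.01. At least 2-fold lower were 4 fatty acid arm genes, Elovl3 (-3.72), Thrsp (-3.70), Acacb (-1.49) and Pklr (-1.17), and 0 of the cholesterol arm. The share was 1.36% of all genes and 2.33% of the bright ones. At least 2-fold higher were 0 members, against 1.99% of all genes, the nearest being Lss at 0.98. Of the markers, 2 of 9 bile duct and progenitor and 3 of 13 macrophage genes were at least 2-fold higher in this comparison, fewer than in ΔS6 over WT, and 1 of 12 hepatocyte genes, G6pc (-1.54), was lower. The isoprenoid to lanosterol group was again above the probe set SD in 5 of 5 genes, with a median of 0.69.

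Set side by side, 15 cholesterol arm genes were higher and 4 lower in both comparisons, and 1 fatty acid arm gene (Acly) was higher and 16 lower in both. Of all genes 31.6% were higher and 39.5% lower in both, against 71.4% and 19.0% of the cholesterol arm and 5.0% and 80.0% of the fatty acid arm. Of the 9042 bright genes 41.7% were higher and 33.8% lower in both. Across the 41 genes the ratios had a Pearson r of 0.96 and a Spearman rho of 0.93, and an r of 0.92 without Elovl3 and Thrsp, where all genes had an r of 0.61 and a rho of 0.59 and the 9042 bright genes 0.67 and 0.67. Genes are not independent replicates, the arrays were normalized together, and each ratio rests on 1 array per side. The distance from 0 was smaller with the transgene for 16 of 20 fatty acid arm genes (80.0%), against 66.1% of all genes, so a smaller ratio was common throughout, and the ratio in transgenic liver exceeded that without it by a median of 0.41, against 0.03 over all genes. The same difference had a median of 0.02 in the cholesterol arm, where 13 of 21 genes (61.9%) had a smaller ratio. The difference for Elovl3 rests on its dim ΔS6 value and is not given a size here. Among the other members the largest were Mlxipl (0.88), Me1 (0.84) and Dgat2 (0.77). Thrsp differed by 0.32, and Srebf1 went the other way at -0.19. These differences of ratios were not tested, and they set a ratio over WT against a ratio over Alb-c-Myc. With Alb-c-Myc as the shared reference, the fatty acid arm median was -0.29 in ΔS6 and -0.37 in ΔS6:c-Myc. On that reference the arm median was thus not nearer 0 with the transgene.

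**Figure D5:**
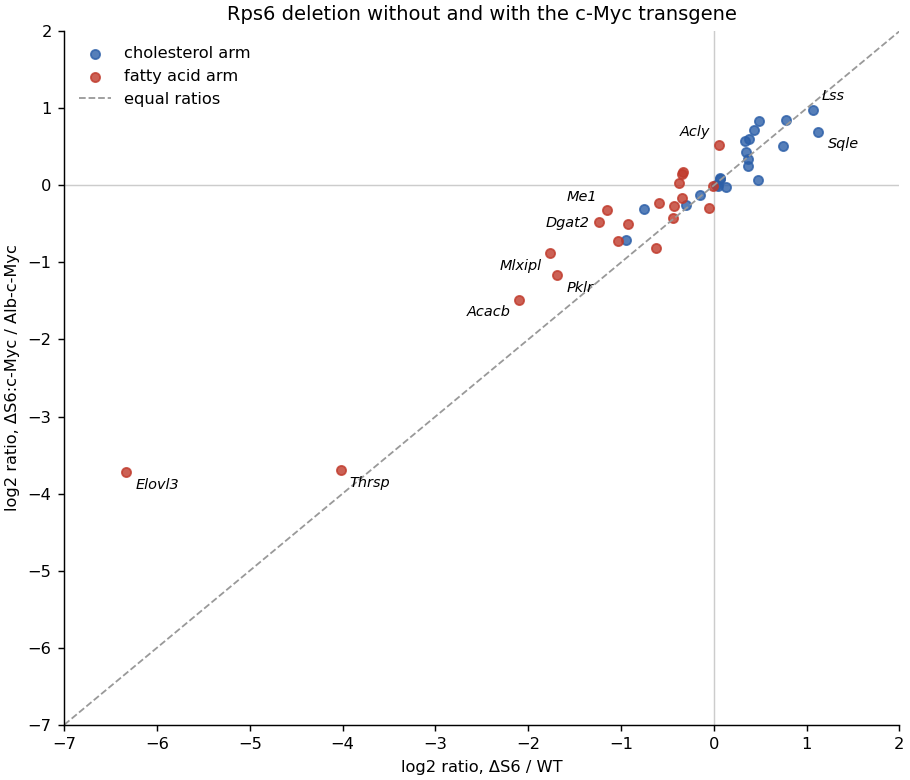
Log2 ratio of the Rps6 deletion in transgenic liver (ΔS6:c-Myc relative to Alb-c-Myc, vertical axis) against that without the transgene (ΔS6 over WT, horizontal axis), 1 point per gene, with equal ratios on the dashed line. Most fatty acid arm genes (red) lie below 0 on both axes and above the line, and most cholesterol arm genes (blue) lie above 0 on both.

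With the transgene alone both arms were slightly lower than in WT. In Alb-c-Myc over WT 17 of 21 cholesterol arm genes and 15 of 20 fatty acid arm genes had ratios below 0, with medians of -0.16 and -0.32, where 8926 of all 18194 genes were below 0. Below minus the probe set SD of 0.14 were 11 cholesterol arm genes (52.4%) and 13 fatty acid arm genes (65.0%), against 18.8% of all genes. The arm medians lay 0.16 apart. The cholesterol arm had its lowest level of the 4 arrays in Alb-c-Myc for 12 of 21 genes (57.1%, against 17.2% of all genes). At least 2-fold lower was 1 member, Elovl3 (-1.44), against 0.335% of all genes, and 0 members were at least 2-fold higher, against 0.418%. Pnpla3 (-0.76) and Elovl6 (-0.51) followed, and in the cholesterol arm Hmgcs1 (-0.42) and Insig2 (-0.37). Hmgcs1, Sqle, Idi1, Cyp51 and Msmo1 thus had their lowest level with the transgene alone. Thrsp (-0.01), Fads2 (0.01) and Fdps (0.01) had almost the same value on both arrays. Other bright probe sets of Fads2 gave -0.17 and -0.49 here, so its value depends on the probe set. The 11 pancreatic markers were also lower than in WT here, 9 of them at least 2-fold, and 6 of 8 dividing cell markers were at least 2-fold higher. Of 10 female-biased liver genes 7 were at least 2-fold lower (median -1.69), with Xist at -5.55. Of 12 male-biased ones 3 were at least 2-fold higher and 1, Elovl3, was at least 2-fold lower, while the other 11 all had ratios above 0. The part of these features of the WT pool in the lower values of both arms was not tested.

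Liver with both changes was set against each single change. In ΔS6:c-Myc over WT the cholesterol arm had a median of 0.14 with 0 genes at least 2-fold higher, against 3.0% of all genes, and 1 past 2-fold downward, Tm7sf2 at 2.01-fold lower. The fatty acid arm had a median of -0.60 with 7 of 20 genes at least 2-fold lower, against 1.8% of all genes and 3.0% of the bright ones. These 7 were Elovl3, Thrsp, Acacb, Srebf1, Fasn, Pklr and Elovl6. Me1 (-0.26), Dgat2 (-0.55) and Mlxipl (-0.79) were past 2-fold in ΔS6 and within it here. In ΔS6:c-Myc over ΔS6 the cholesterol arm had a median of -0.17, with 18 of 21 genes below 0. Above 0 were 14.3% of its genes, against 57.9% of all genes. The fatty acid arm had a median of 0.05, which was also that of all genes, and 60.0% of its genes were above 0, against 57.9% of all genes. At least 2-fold higher was 1 member, Elovl3, against 0.769% of all genes, and this ratio (1.16) is uncertain in size since it is taken over the dim ΔS6 value of 5.62. There were 0 members at least 2-fold lower, against 4.29%. Mlxipl (0.97), Me1 (0.89), Dgat2 (0.69), Pklr (0.67) and Stard4 (0.54) were nearer to WT with the transgene than without it, and Sqle (-0.66) also moved toward WT. Srebf1 (-0.60) moved away from it. In the same comparison all 9 bile duct and progenitor markers and 10 of 13 macrophage markers were at least 2-fold lower, and the part of those cells in the ratios was not tested.

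Other genes of the pathways did not all follow their arm. Of 21 further measured genes of cholesterol handling, 1 was past 2-fold upward in ΔS6 over WT, the exporter Abcg1 (8.63 to 9.97), and 1 lower, Abcg8 (11.45 to 10.01), a subunit of the sterol exporter into bile. In ΔS6:c-Myc relative to Alb-c-Myc 0 of the 21 were past 2-fold. Of 50 further measured genes of fatty acid and triglyceride metabolism, 8 were at least 2-fold higher (all genes 7.24%) and 4 lower (2.54%) in ΔS6 over WT, and 4 (1.99%) and 2 (1.36%) in ΔS6:c-Myc relative to Alb-c-Myc. Scd2, a desaturase related to Scd1 that is prominent in fetal liver, had 7.32 for WT, 11.66 for ΔS6, 7.24 for Alb-c-Myc and 9.53 for ΔS6:c-Myc. The elongase Elovl7 had 6.42, 9.13, 6.85 and 7.61, and Fads3, of the desaturase family, 7.73, 9.28, 7.80 and 7.98. These genes were thus highest in ΔS6, where Elovl3, Elovl6, Scd1 and Fads1 were lower than in WT. Angptl8, a feeding-induced secreted inhibitor of lipoprotein lipase, had 9.10, 10.02, 9.09 and 10.96. On the lower side were Lpin1, the phosphatidate phosphatase before the Dgat step, with 12.68, 10.59, 12.61 and 10.99, and the coactivator Ppargc1b with 9.94, 8.56, 10.16 and 9.47. Aacs, which activates acetoacetate for lipid synthesis, had 10.84, 9.55, 11.27 and 10.02, and the peroxisomal thiolase Acaa1b 14.69, 13.60, 14.67 and 14.25. Lpin1 and Aacs, like Thrsp and Acacb, were low on both Rps6-deleted arrays.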

How the data were processed

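Liver RNA was measured on Affymetrix mouse arrays, 1 per genotype. The deposited log2 values were summarized and quantile-normalized by the authors with RMA. RMA and affy stand in the submitters' notes, and their versions were not given in the sources used here. Array medians lay between 6.85 and 6.88. Scanner intensities were not used here, so background and depth could not be set. RMA compresses ratios of dim probe sets.

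Of 45101 probe sets 34958 have 1 symbol in the platform annotation, 932 several and 9211 none. The brightest single-symbol probe set, by its mean over all 4 arrays, stood for a gene. Log2 ratios of 2 arrays were computed for 5 comparisons, and a gene was counted past 2-fold at a ratio of 1 or -1. Genotypes were compared without a test. The spread of the ratio between probe sets of a gene was pooled over 3379 genes with 8477 probe sets of mean log2 value at least 8. The members, lists and roles were chosen with earlier results of these data known. All members were named, with up to 4 genes per direction and list among further pathway genes past 2-fold in ΔS6 over WT or ΔS6:c-Myc relative to Alb-c-Myc, and Lbr. Markers are given mainly as counts, with Xist, Myc and some others named. Alternatives were other scalings, probe set choices, a filter on dim genes, a 1.5-fold threshold, leaving out sex-biased genes and, added later, Alb-c-Myc as the reference. The counting steps were tested on simulated data. Python 3.11.15, numpy 2.4.6, pandas 2.3.3 and matplotlib 3.10.9 were used.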

Additional observations from a re-analysis of the deposited data

Results flagged for a closer look

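Elovl3 went in opposite directions with the transgene in the presence and absence of Rps6, with a log2 ratio of -1.44 for Alb-c-Myc over WT and of 1.16 for ΔS6:c-Myc over ΔS6, and this difference was not tested. Its ΔS6 level, 5.62, was dim, and it is a male-biased gene on arrays that differ in Xist. Of the 12 male-biased genes 11 had ratios above 0 in Alb-c-Myc over WT (median 0.44), and Elovl3 was the only 1 below 0. The part of sex in its ratios was not tested.

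Probe sets not used for their gene were past 2-fold in ΔS6 over WT for 3 members whose used probe set was not. A dim probe set of Hmgcs1 had 4.84 in WT and 6.40 in ΔS6, a ratio of 1.57, against 0.44 for the one used. A bright probe set of Sc5d had 11.52 and 10.37, a ratio of -1.15, against 0.02. A probe set of Elovl6 had 7.92 and 6.31, a ratio of -1.61, against -0.92.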

How the results depend on the processing

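No paired analysis was possible because each genotype has 1 array. Of 236 recomputed arm medians and counts 217 were labelled unchanged, 19 were labelled moved and 0 changed sign. The labels allow small changes, so that 7 in place of 8 fatty acid arm genes at least 2-fold lower in ΔS6 over WT counted as unchanged. Some alternatives, such as the filter on dim genes, could hardly move a value, so these totals say little of robustness. Averaging all probe sets of a gene, or leaving out those named _x_at or _s_at, left 1 cholesterol arm gene at least 2-fold higher in ΔS6 over WT. Median-centring or repeated quantile normalization left 0 of them past 2-fold downward in ΔS6:c-Myc over WT, since Tm7sf2 lies at the threshold, and the latter gave 2 fatty acid arm genes at least 2-fold higher in ΔS6:c-Myc over ΔS6. Without Elovl3 that count was 0, as was the count lower in Alb-c-Myc over WT. With Alb-c-Myc as the reference for ΔS6 the fatty acid arm median was -0.29 in place of -0.61. At 1.5-fold, cholesterol arm counts were 4 higher and 2 lower in ΔS6 over WT, 4 higher in ΔS6:c-Myc over WT, 6 higher and 1 lower in ΔS6:c-Myc relative to Alb-c-Myc, and 1 lower in ΔS6:c-Myc over ΔS6. Fatty acid arm counts at 1.5-fold were 2 lower in Alb-c-Myc over WT, 11 lower in ΔS6:c-Myc over WT, 7 lower in ΔS6:c-Myc relative to Alb-c-Myc, and 5 higher and 1 lower in ΔS6:c-Myc over ΔS6. Of 410 single-gene values 392 were labelled unchanged, 18 were labelled moved and 0 reversed a called direction. Averaging all probe sets gave -2.98 for Thrsp, -1.18 for Acacb, 0.65 for Lss, 0.25 for Fdps, 0.06 for Fdft1 and -0.53 for Sc5d in ΔS6 over WT, as dim or discordant probe sets entered the mean.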
